A study of Mus musculus with 4 samples.

Results

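The regions described here held a PU.1 peak, as called by the authors, in B cells of both mutant mice and no called peak in wild-type B cells. Peaks of the 3 deposited lists that overlapped by at least 1 bp were joined into regions on chromosomes 1 to 19. On these chromosomes the lists held 1114 peaks for the wild type, 2063 for the PU.1 knock-in and 4094 for the miR-155 knockout. A region was kept when it held a peak from the PU.1 knock-in and a peak from the miR-155 knockout and none from the wild type. This gave 718 of 4676 regions (15.4%). They made up 20.2% of the 3562 regions without a wild-type peak and 46.9% of the 1530 regions called in both mutants. These shares follow from the rule, so nothing is read from them. The regions were chosen by which lists called a peak there, so scores, widths and distances from the same lists are given as descriptions without a test.

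The cells were splenic B cells, isolated by negative selection and stimulated in culture for 96 h with lipopolysaccharide at 5 ug/ml and IL-4 at 10 ng/ml. PU.1-bound DNA was measured by ChIP-seq, in which DNA crosslinked to a protein is precipitated with an antibody and sequenced. The 3 genotypes were wild type, PU.1[155-/155-], a knock-in at the PU.1 gene that removes its miR-155 target site, and miR-155[-/-], which lacks the microRNA. Each genotype had 1 library. Its title calls it a mix, without the number of mice pooled. The sources used here give neither strain nor age, and the input DNA sample was not analysed here. Every difference between genotypes below is therefore a difference between single libraries, with no replicate check and no p-value. Expression was not measured in these files, so the cell type could not be checked against marker genes.

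PU.1, the product of Spi1, is an ETS-family transcription factor that binds DNA through a purine-rich site with a GGAA core. It is needed for early B cell and myeloid development, and its level influences which sites it occupies. In activated B cells miR-155 is induced, and it pairs with the PU.1 transcript and lowers PU.1. Both mutations remove that repression, one by loss of the microRNA and the other by loss of its target site. The regions described here are peak calls that the 2 mutant libraries share and the wild-type library lacks. Whether the mutations caused these calls was not tested. The guide strand absent from the knockout is shown here with its seed, bases 2 to 8, in capitals, because the knock-in removes the site that this seed pairs with.
mmu-miR-155-5p: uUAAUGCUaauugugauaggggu
The sequence is RefSeq's, from its GRCm38 set. Peak positions are on mm9, and no mm9 sequence or annotation was at hand, so genes, exons, promoters and PU.1 motifs at the regions were not analysed here.

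Each of the 718 regions was built from exactly 1 knock-in peak and 1 knockout peak. Together they held 34.8% of the knock-in peaks and 17.5% of the knockout peaks on these chromosomes. The joined regions covered 271 kb. They spanned 184 to 647 bp, with a median of 373 bp and an interquartile range of 313 to 431 bp. The 812 regions called in all 3 genotypes had a median of 426 bp (372 to 481), but those were joined from at least 3 peaks. Single peaks are the fairer measure. The knock-in peak had a median width of 301 bp in the 718 regions and 319 bp in the regions of all 3 genotypes. For the knockout peak the medians were 305 bp and 338 bp. None of the 718 regions was wider than 1000 bp, and 61 (8.50%) were wider than 500 bp. The widest were chr2:122234346-122234992 at 647 bp, chr2:180927678-180928316 at 639 bp and chr3:89885061-89885688 at 628 bp.

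The knock-in and knockout peaks of a region, which overlap by the rule, lay nearly on top of each other. Their centres were a median of 36 bp apart, and 668 of 718 pairs (93.0%) were within 100 bp. In the regions of all 3 genotypes the median was 39 bp and the share within 100 bp was 92.7%. The stretch common to both peaks was a median of 244 bp long and never shorter than 109 bp. It covered a median of 85.7% of the knock-in peak and 85.9% of the knockout peak. The knock-in peak lay inside the knockout peak in 180 regions, and the knockout peak lay inside the knock-in peak in 195. Neither mutant had the wider peak as a rule: the knock-in peak was wider in 352 regions and the knockout peak in 361. Widths of the paired peaks were almost unrelated over the 718 regions (Spearman's rho = 0.0782).

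**Figure D1:**
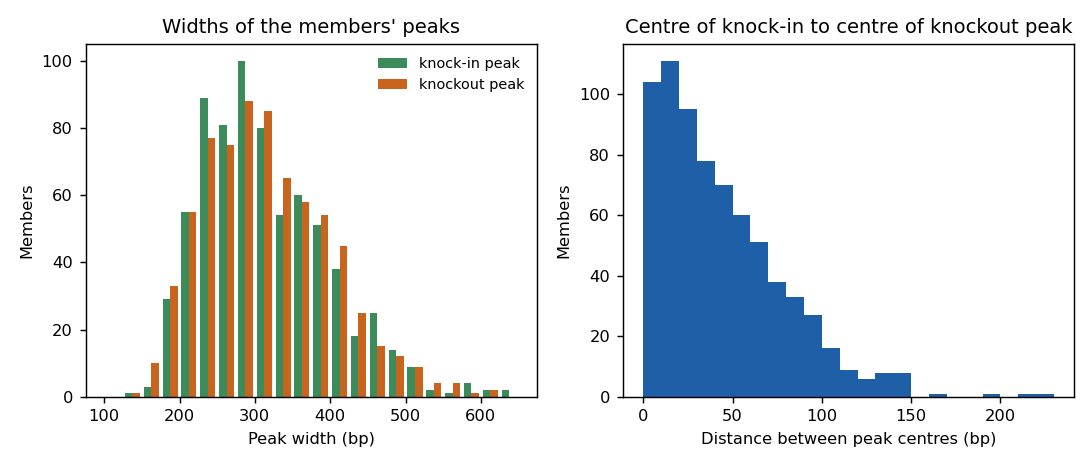
Left, histogram of the widths in bp of the knock-in and knockout peaks of the 718 regions, in steps of 25 bp. Right, histogram of the distance in bp between the centres of the paired peaks, in steps of 10 bp; 668 of 718 pairs lie within 100 bp.

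Ranked from low to high by the authors' score, these regions lay in the lower and middle part of the knock-in list. In the knockout list they lay somewhat higher. The sources used here do not state the scale of the score. In the knock-in the scores ran from 50.1 to 208 with a median of 70.1 (interquartile range 59.5 to 85.5), which is percentile 45.3 of that list. In the knockout they ran from 50.8 to 380.3 with a median of 104 (76.3 to 143), at percentile 61.1. Regions of all 3 genotypes stood higher, with median percentiles of 74.2 (knock-in) and 86.9 (knockout). Regions of 1 mutant alone stood lower, with 20.8 for the knock-in alone and 33.6 for the knockout alone. By median score the 718 regions thus lay between those 2 kinds in each list, and the ranges of all of these classes overlapped. Of the 718 regions, 110 (15.3%, exact 95% binomial interval 12.8 to 18.2) exceeded the knock-in median of the regions of all 3 genotypes, and 76 (10.6%, 8.43 to 13.1) exceeded their knockout median. Only 28 (3.90%, 2.61 to 5.59) exceeded both. These intervals cover counting error over regions and not variation between mice or libraries.

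Along the score scale the share of knock-in peaks that belonged to these regions was highest in the middle. After a division of the list into 10 classes of like size, the regions took 26.5% of the lowest class, 47.6% of the fourth, with scores of 59.8 to 66.8, and 7.28% of the highest. In the knockout list the share went from 8.60% in the lowest class to 28.5% in the eighth, with scores of 125 to 153, and was 9.76% in the highest. In that eighth class the regions of all 3 genotypes took the same share, 28.5%, and above it they were the larger class, at 46.2% and 83.4%.

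Among the 1530 regions called in both mutants, those without a wild-type peak were concentrated at low combined rank. The combined rank is the sum of a region's 2 score percentiles, 1 from each mutant list. In the lowest of 10 equal classes by combined rank, 132 of 153 regions lacked a wild-type peak (86.3%, exact 95% interval 79.8 to 91.3). In the fifth class the share was 57.5% (49.3 to 65.5). In the highest class it was 6 of 153 (3.92%, 1.45 to 8.34). Of the 100 regions with the highest combined rank, 3 lacked a wild-type peak (3%, 0.623 to 8.52). The first region without one stood in place 51 of 1530, the next in place 84, and the median one in place 1069. The read depth of the libraries is unknown, and with depth unknown a site under the calling threshold in the wild type and an unbound site cannot be told apart.

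**Figure D2:**
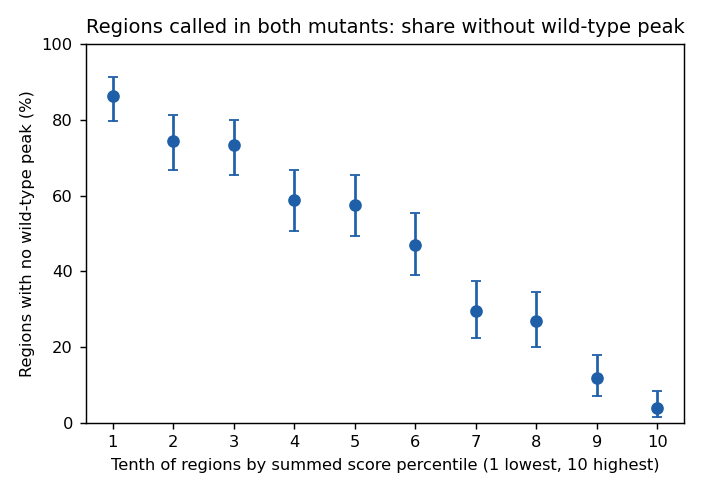
Share in % of regions called in both mutants that have no wild-type peak, over 10 equal classes of combined score percentile with 153 regions each; points are shares and bars exact 95% binomial intervals. The share goes from 86.3% in the lowest class to 3.92% in the highest.

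The wild-type score of the regions of all 3 genotypes gives a further point of reference. In the 82 of these regions with the lowest wild-type scores, 50.02 to 56.2, just above the lower end of the wild-type list, the median score was 78.9 in the knock-in (interquartile range 68.9 to 95.01) and 119 in the knockout (92.1 to 165). The 718 regions, which had no wild-type call, had medians of 70.1 and 104. Their interquartile ranges overlapped those of the 82 in both lists. In the 200 regions with the highest wild-type scores the medians were 151 and 304. The 232 regions of wild type and knockout alone had a median knockout score of 108, and the 20 of wild type and knock-in alone a median knock-in score of 78.0.

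The order of the regions by score was only weakly shared between the mutants. Over the 718 regions the knock-in and knockout scores had a Spearman's rho of 0.247. These points come from 1 library per mutant and share the calling threshold. In the 812 regions of all 3 genotypes rho was 0.554 for the same pair of lists, 0.485 for wild type and knock-in and 0.553 for wild type and knockout. The 718 regions also covered a narrower range of scores. When both sets were limited to scores between the 5th and 95th percentiles of the 718 regions, rho was 0.153 over 586 of them and 0.179 over 388 regions of all 3 genotypes. Within that common range the weak agreement was therefore seen in both sets. For the 232 regions of wild type and knockout alone, rho between these lists was 0.285. By chromosome, rho over the 718 regions ran from -0.144 (chromosome 12, 30 regions) to 0.540 (chromosome 19, 18 regions) and was above 0 on 17 of 19 chromosomes.

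Agreement was somewhat higher at the top of the order than at the bottom. The 718 regions were put in 4 classes by rank in each list. Of those in the highest class by knock-in score, 72 of 176 (40.9%, exact 95% interval 33.6 to 48.6) were also in the highest class by knockout score, and 23 (13.1%, 8.47 to 18.96) were in the lowest. Of those in the lowest knock-in class, 61 of 192 (31.8%, 25.3 to 38.9) were in the lowest knockout class and 38 (19.8%, 14.4 to 26.1) in the highest. The intervals around 40.9% and 31.8% overlapped. In the regions of all 3 genotypes the same shares were 59.1% at the top and 45.8% at the bottom. The classes of the 718 regions differ in size because scores are tied. Of the 100 regions with the highest score in each list, 35 were the same, compared with 57 for the regions of all 3 genotypes. In both mutants, 236 regions (32.9%) stood in the upper 50% of the list, 51 (7.10%) at percentile 75 or above, and 6 (0.836%) at percentile 90 or above. For the regions of all 3 genotypes these shares were 73.4%, 44.3% and 18.3%. At the other end, 181 of the 718 (25.2%) stood below percentile 50 in both lists, compared with 3.20% of the regions of all 3 genotypes.

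**Figure D3:**
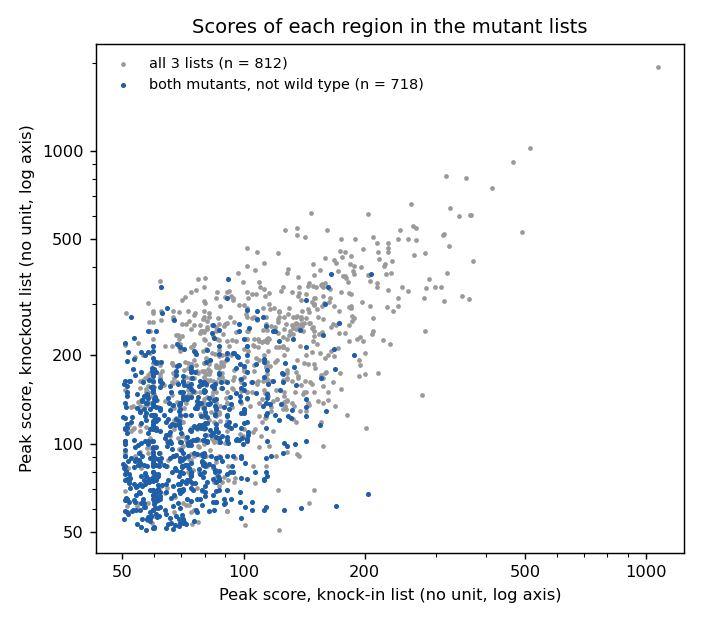
Score in the knock-in list (x, log axis) against score in the knockout list (y, log axis) for each region, in blue for the 718 regions called in both mutants only and in grey for the 812 called in all 3 genotypes. The blue points form a broad cloud at low scores in both lists, and few lie among the high grey points.

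The 10 regions with the highest combined rank were high in both mutants by the rule that ranked them. The first, chr10:51173747-51174218, had the highest knock-in score of the 718 regions, 208, and the second highest knockout score, 379. The highest knockout score, 380.3, was at chr6:52792537-52792922, which stood at rank 8 in the knock-in with 165. At chr7:38940736-38941216 the scores were 162 and 343, and at chr1:145763624-145763994 they were 160 and 301, in the order knock-in and knockout. These 4 regions lay between 2071 and 4891 kb from the nearest wild-type peak. The next pair were closer to one. The region chr1:60998137-60998516, with 173 and 259, lay 24.8 kb from a wild-type peak, and chr7:149628449-149628926, with 143 and 310, lay 17.6 kb from one. Both of those wild-type peaks were also called in the mutants. The remaining 4 regions differed in how even their ranks were. In chr15:72848091-72848480 the knock-in score of 188 was the third highest of the 718 and the knockout score of 201 stood at rank 58. For chr1:154645320-154645629 the scores were 157 and 235. For chr16:92874193-92874654 they were 168 and 210, and for chr3:89885061-89885688 they were 138 and 245. That last region stood at rank 22 in both mutants.

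Some regions scored high in 1 mutant and near the threshold in the other. On the knock-in side, chr2:117129169-117129481 had rank 5 in the knock-in with a score of 169 and rank 654 in the knockout with 61.3. The region chr12:114406447-114406716 scored 139 in the knock-in and only 60.3 in the other mutant. At chr12:55921739-55922023 the scores were 126 and 59.5. On the knockout side, chr15:102055717-102056241 scored 220 in the knockout, rank 36, and 50.8 in the knock-in. The region chr5:136044661-136044957 had 271 in the knockout and 52.4 in the knock-in. At chr13:114362180-114362566 the scores were 205 and 51.8. In 5 of these 6 regions the peak centres were 12.5 to 65 bp apart, so the peaks met at the same place while their ranks did not. In the sixth, chr15:102055717-102056241, the centres were 143.5 bp apart.

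Some exact values of the score recurred. In every list a set of exact values came back many times, beginning with 59.49, 69.53, 79.98, 90.8 and 101.97. These equal −10 times the log10 of the Poisson probability of at least 9, 10, 11, 12 and 13 events when 1 is expected, to within 0.006. On this series were 13.7% of wild-type peaks, 10.5% of knock-in peaks and 12.1% of knockout peaks. For 1568 other expected values between 0.2 and 6, the median number of matching peaks was 1, 2 and 4 per list. The sources used here do not say what the events were. The relation was looked for after the repeated values had been seen.

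For peaks on this series the score can be read as a number of events against the same expectation of 1, in whichever list they lie. Of the 718 regions, 84 were on it in the knock-in list, 104 in the knockout list and 49 in both. A region on it in the knock-in was on it in the knockout in 49 of 84 cases (58.3%), compared with 55 of the 634 others (8.68%). This was not particular to the 718: of 107 regions of all 3 genotypes on it in the knock-in, 63 were on it in the knockout. In those 49 regions the knock-in peaks had 9 to 20 events with a median of 10, and the knockout peaks 9 to 31 with a median of 15. The knockout had more events in 39 of them, the same number in 8 and fewer in 2. In 63 regions of all 3 genotypes on the series in both mutants the medians were 13 and 22, with more in the knockout in 58. The knockout thus had more events both at these regions and at those also called in the wild type. In the 51 regions on the series in every list, the wild-type median was 12, against 13 for the knock-in and 22 for the knockout. The read depth of each library is unknown, and depth and genotype cannot be told apart here.

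Most of the regions lay more than 100 kb from a wild-type peak, as did most regions of the other classes given here. The gap from the edge of a region to the nearest wild-type peak ran from 207 bp to 19611 kb, with a median of 283 kb and an interquartile range of 76.1 to 988 kb. Within 1 kb of a wild-type peak lay 3 regions (0.418%), compared with 0.561% of all regions that lacked a wild-type peak. Within 10 kb lay 37 (5.15%, exact 95% interval 3.65 to 7.03), with 4.15% for all such regions, and within 100 kb lay 202 (28.1%, 24.9 to 31.6), with 22.7%. The background holds the 718 regions themselves, and the share within 10 kb was near it. Regions of the knockout alone lay at a median gap of 415 kb, with 22.4% within 100 kb (20.7 to 24.1). For those called in the knock-in alone the median was 614 kb and the share within 100 kb was 16.6% (13.5 to 20.1). Regions of all 3 genotypes lay a median of 364 kb from the next wild-type peak, with 25.5% within 100 kb (22.5 to 28.6). Regions of wild type and knockout alone lay a median of 281 kb from the next wild-type peak, with 29.3% within 100 kb. Within 100 kb the share was lower in both classes of 1 mutant than in the 718. The intervals cover counting error over regions of single libraries, and the distance is to the list that the rule used. The differences between classes were not tested.

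**Figure D4:**
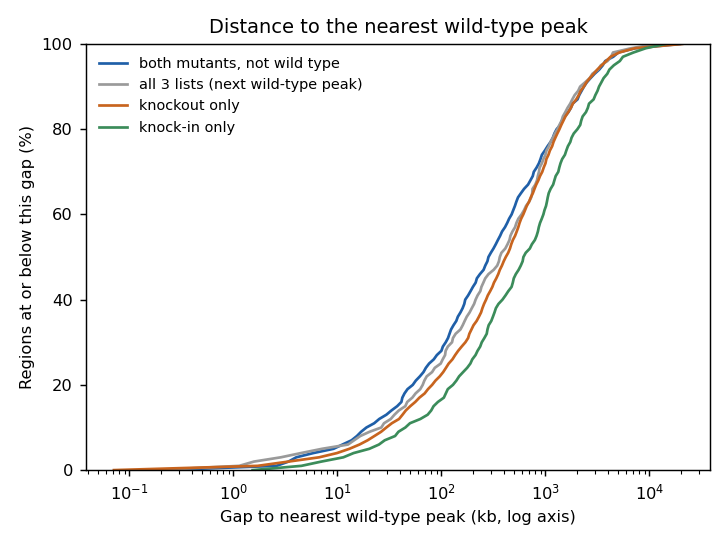
Cumulative share in % of regions (y) by the gap in kb to the nearest wild-type peak (x, log axis) for regions in both mutants only, in the knockout alone and in the knock-in alone; for regions of all 3 genotypes the gap is to the next wild-type peak. The medians are 283 kb, 415 kb, 614 kb and 364 kb.

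The rule of 1 bp of overlap decided no close case. The regions just inside it were chr9:65389434-65389806, 207 bp from a wild-type peak, chr18:69821828-69822244 at 399 bp and chr1:193638113-193638476 at 599 bp. Just outside it, the shortest overlaps of a wild-type peak with a mutant peak in the regions of all 3 genotypes were 138 bp at chr11:116975843-116976255, 140 bp at chr9:57648434-57648722 and 142 bp at chr17:19105276-19105798. Knock-in and knockout scores were 100 and 159, 103 and 109, and 74.2 and 154 in the 3 inside, and 86.9 and 90.8, 93.4 and 133, and 210 and 269 in the 3 outside. The regions farthest from any wild-type peak were chr18:4443532-4443872 at 19611 kb and a pair on chromosome 3, chr3:36525815-36526244 at 14407 kb and chr3:37179709-37180023 at 13753 kb.

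Median scores were similar across classes of distance from wild-type sites in the knockout and less so in the knock-in. The 37 regions within 10 kb had median scores of 67.0 (knock-in) and 103 (knockout). The 165 between 10 and 100 kb had 74.95 and 104, and the 516 beyond 100 kb had 69.5 and 104. Over all 718, rho between the gap and the score was -0.0895 for the knock-in and -0.0112 for the knockout. Among the 236 regions in the upper 50% of both mutant lists the median gap was shorter, 192 kb against 283 kb for all 718. In 25 of the 37 nearest regions (67.6%) the wild-type neighbour was called in all 3 genotypes. That share was 70.9% between 10 and 100 kb and 73.4% beyond 100 kb. Of all wild-type peaks on these chromosomes, 72.9% lay in regions of all 3 genotypes. The 718 regions had 490 different wild-type peaks as nearest neighbour, which is 44.0% of the wild-type peaks on these chromosomes, and 333 of those served 1 region only. The most regions with the same nearest wild-type peak was 6, at chr5:138266308-138266655, from 323 to 3561 kb away; this peak was singled out after the counts were seen.

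Few of the regions lay close to another of them. Within 10 kb of another lay 14 of 718 (1.95%), in 7 pairs, and no group was larger than 2. Of the 812 regions of all 3 genotypes, 27 (3.33%) lay within 10 kb of one of the 718, also a small share. The pairs were at chr10:7726998-7730051, chr10:37057916-37058686, chr10:95826520-95833890, chr2:164688037-164694315, chr3:105695303-105704030, chr4:16009303-16015870 and chr5:134705261-134709430. The closest pair, on chromosome 10 from 37057916, spanned 771 bp, with 59.5 and 137 in the knock-in and knockout at one site and 52.1 and 73.4 at the other. In 1 of the 7 pairs, chr10:95826520-95833890, a region with a wild-type peak lay within 10 kb. The pair on chromosome 2 had the highest knock-in scores of the 7 pairs, with 102 at both sites. A member of the pair on chromosome 5 had the highest knockout score of the 14, 242, beside a knock-in score of 57.9.

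Other PU.1 regions lay near 108 of the 718 (15.0%), and 610 (85.0%) had no other region of any kind within 10 kb. These shares are not given here for the other classes, so nothing is read from them. A region called in the knockout alone lay within 10 kb of 56 of the 718 (7.80%), and a region of all 3 genotypes within 10 kb of 26 (3.62%). For the regions of all 3 genotypes the share with a knockout-only neighbour was 8.37%. The nearest region of any kind was a knockout-only region in 368 cases (51.3%), where such regions made up 49.9% of all others. It was a region of all 3 genotypes in 143 cases (19.9%, against 17.4% of all others), and another of the 718 in 81 (11.3%, against 15.3%). In windows of 1 Mb that held any region, 1001 had none of the 718 regions, 450 had 1, 100 had 2, 16 had 3 and 5 had 4. Such counts are not given here for other classes, so no clustering is read from them.

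Every autosome held some of the regions. Their number ran from 18 on chromosomes 14 and 19 to 69 on chromosome 1. As a share of the regions called in both mutants, those without a wild-type peak ran from 33.3% on chromosome 19 (exact 95% interval 21.1 to 47.5) to 57.4% on chromosome 18 (42.2 to 71.7). The intervals of all 19 chromosomes held the overall 46.9%. Of all regions on a chromosome they took from 11.2% on chromosome 19 (6.76 to 17.1) to 21.1% on chromosome 18 (14.4 to 29.2), and all 19 intervals held the overall 15.4%. The median knock-in score ran from 61.0 on chromosome 10 to 77.9 on chromosome 12, and the median knockout score from 86.6 on chromosome 4 to 125 on chromosome 14. Chromosome 10 held 46 of the regions (6.41%) and 3 of the 7 pairs. It was singled out after the counts were seen, and a link between the pairs and its knock-in median was not tested.

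**Figure D5:**
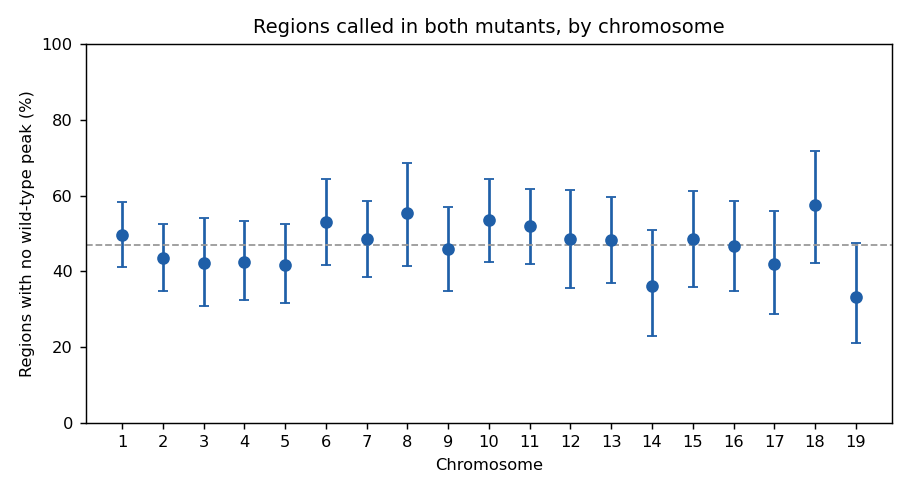
Share in % of regions called in both mutants that have no wild-type peak, for each autosome; points are shares, bars exact 95% binomial intervals and the dashed line the overall 46.9%. All 19 bars cross the line.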

How the data were processed

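PU.1 ChIP-seq peak lists of 3 libraries were used, 1 per genotype. Trim Galore, Bowtie and MACS and the build mm9 are named in the submitters' processing notes; the sources used here do not give versions, settings or the control. Each deposited list gives chromosome, start, end, name and a score per peak, called by the authors in each library separately. The score is not normalized between lists, and the lists hold no read counts, so depth is unknown. Starts were raised by 1 so that positions count from 1. The last called position on chromosome 1, 197028196, lies beyond the last gene of that chromosome in GRCm38, so the GRCm38 gene and promoter tables were not used to place peaks.

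Overlapping peaks were joined as connected components. Percentiles are ranks within a whole list. Gaps are edge to edge. Exact (Clopper-Pearson) 95% intervals cover counting error only. The regions and rules were chosen with earlier results of these data known, and the series in the scores was looked for after seeing them. Named regions are the 10 with the highest summed percentiles, the 3 with the largest rank difference in each direction, the 3 widest, the 3 nearest and 3 farthest from a wild-type peak, the 3 nearest outside the rule, and the largest groups within 10 kb. The functions were tested on simulated data (scipy 1.17.1, pandas 2.3.3 and numpy 2.4.6 under Python 3.11.15; plots by matplotlib 3.10.9). Alternatives were a reciprocal overlap of 50%, joining up to 500 bp, shorter mutant lists, the sex chromosomes, a wild-type distance of 1 kb, and other measures of rank agreement, width and distance.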

Additional observations from a re-analysis of the deposited data

How the results depend on the processing

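Of 40 recomputed values, 30 stayed within their limits. The limits were 1.5 times for the number of regions, 0.1 for rho and exact 95% binomial intervals for shares and medians. Some of the 30 had little or no room to move. Averaging the scores of several peaks left rho at 0.247, because each region had 1 peak per mutant list. Leaving out regions within 1 kb of a wild-type peak kept 715 of 718. Kendall's tau-b, 0.169, was held to the limit for rho, although it is a different measure. Every recomputed rho stayed positive. Counts, shares, widths and distances cannot change sign. With the higher-scoring 50% of each mutant list against the whole wild-type list, 236 regions were left, 28.4% of those called in both mutants, at a median of 192 kb from a wild-type peak. With mutant lists as long as the wild-type list, 141 were left (20.7%), with rho 0.364, a median width of 382 bp, a median gap of 183 kb and 3.55% within 10 kb. Both settings enter fewer peaks, and all the regions they left belonged to the 718. The stretch common to both peaks had a median of 244 bp. A reciprocal overlap of 50% gave 690 regions, of which 679 were among the 718, and keeping the sex chromosomes gave 725. No paired analysis was possible because there is 1 library per genotype, and no replicate could be left out. The unknown depth limits what a missing wild-type peak shows.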

Other observations

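Outside the rule for named regions, and chosen after the values were seen, chr4:132316211-132316513 had the second highest knock-in score of the 718 regions, 203, and stood at rank 611 in the knockout. In the knockout, chr5:91171010-91171440 had the third highest score and rank 139 in the knock-in, and chr6:116629565-116630094 had the fourth highest and rank 455. The 1 Mb windows with 4 of the regions were on chromosomes 1, 6 and 10. In the window of chromosome 6 starting at 127000001, 4 of 9 regions of any kind were called in both mutants only, 3 in the knockout alone and 1 held a wild-type peak. On the sex chromosomes, which the rule leaves out, 6 further regions of this kind lay on X and 1 on Y.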
